A study of Mus musculus with 24 samples.

Results

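Costimulatory and checkpoint ligands are the surface and secreted proteins with which a macrophage raises or restrains the response of a T cell. The 9 genes Cd274, Pdcd1lg2, Cd80, Cd86, Cd40, Cd276, Icosl, Havcr2 and Lgals9 were taken by symbol from a table of 37979 genes measured in sorted mouse lung macrophages and monocytes. Each had 1 row, and all 9 passed the filter on low values. By protein, Cd40 and Havcr2 encode receptors carried by the myeloid cell, and the other members encode ligands.

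The mice were C57BL/6 males of 10 to 16 weeks. LLC-Luc cells, a luciferase-labelled Lewis lung carcinoma line, were injected into the left lung lobe, and the lobe with the tumour was taken after 2 or 3 weeks. Naive mice had no injection, and all of their lobes were used, so tumour and lobe cannot be told apart between naive and tumour groups. Each library came from cells of 3 to 5 pooled mice, and each of the 8 groups had 3 libraries from 3 independent experiments. MacA cells were sorted as SiglecF+/CD11c+ from naive lungs (MacA-N) and at 2 weeks (MacA-2wk). MacB1 cells were CD11b+/Ly6G-/CD64low/CD11c+ and came from naive lungs (MacB1-N). MacB2 cells were CD11b+/Ly6G-/CD64med/CD11c- and came from naive lungs (MacB2-N), 2 weeks (MacB2-2wk) and 3 weeks (MacB2-3wk). MacB3 cells were CD11b+/Ly6G-/CD64hi/CD11c+ and came from tumour lobes at 2 weeks (MacB3-2wk) and 3 weeks (MacB3-3wk). The series' design text uses the 3-week name for the MacB3 cells of both times; sample titles were followed here, and every MacB3 value by week rests on them.

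A T cell that meets its antigen needs a further signal through CD28, which binds CD80 and CD86, while CTLA-4 competes for the same ligands. PD-L1 (Cd274) and PD-L2 (Pdcd1lg2) bind PD-1 and restrain the T cell, ICOSL binds ICOS, and CD40 takes CD40L from helper T cells and turns on NF-kB in the cell that carries it. CD276 (B7-H3) is a B7 family protein that is often reported in tumours, TIM-3 (Havcr2) is an inhibitory receptor found on T cells and myeloid cells, and galectin-9 (Lgals9) binds sugars and is one of the ligands described for TIM-3.

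Values are FPKM, fragments scaled to transcript length and to the mapped reads of the library, so levels of different genes can be set side by side. Differences between groups are on log2(FPKM + 1), which understates the change of low genes, and are given with their standard error (SE) from limma. For each gene this SE rests on a spread shared by all 8 groups, so libraries outside a comparison also set it. A gene was called where its Benjamini-Hochberg adjusted p was under 0.05 and its difference at least 2-fold. Library sums ran from 1880236 to 4868372 FPKM, miRNA genes took 43.7% to 75.1% of them, and 15599 to 18522 genes were above 0; read depth is unknown. In 22 of 24 libraries the most similar other library was of the same group. Of the sort markers, Siglecf and Itgax (CD11c) followed the gates. Siglecf was 125.3 FPKM or higher in MacA libraries and 8.77 FPKM or lower in MacB libraries. Itgax was 13.2 FPKM or lower in MacB2 and 50.0 FPKM or higher elsewhere. Levels of the genes for CD64 and CD11b are not given here. Ly6g was listed at 0 in all libraries, MacA included, so it cannot show how the Ly6G gate worked. Library 3 of MacA-2wk stood apart from the other 2 of its group, with 10.4% of its sum in protein-coding genes, and values without it are given beside some of the results it moved. Library 3 of MacB2-2wk held 15.5% in protein-coding genes, against 22.7% and 21.3% in its group. Its sum was 4790128 FPKM, and it had the fewest genes above 0, 15599. It also had the highest Cd40 and Cd276 and the lowest Pdcd1lg2 of its group. Lane 1 carried every MacA library, while replicates 1, 2 and 3 of the MacB groups ran on lanes 2, 3 and 7; the lane and the difference between MacA and MacB cells cannot be told apart.

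Cd274 and Pdcd1lg2 are neighbours on chromosome 19, and their profiles over the libraries were alike, so the sequences before their starts are shown. Cd276 is shown with them because it had the largest differences of the 9 genes between tumour and naive MacB2 cells. On GRCm38, Cd274 (ENSMUSG00000016496) spans chr19:29367455-29388095 and Pdcd1lg2 (ENSMUSG00000016498) chr19:29410919-29471161, both on the plus strand with 22823 bases between them. Cd276 (ENSMUSG00000035914) lies at chr9:58524298-58555437 on the minus strand. The sequences are the 250 bases before the RefSeq start (GRCm38.p6), written 5′ to 3′ on the strand of the gene, with a match to the NF-kB kappa-B consensus in capitals. Their positions are chr19:29367188-29367437, chr19:29410669-29410918 and chr9:58555034-58555283.
Cd274: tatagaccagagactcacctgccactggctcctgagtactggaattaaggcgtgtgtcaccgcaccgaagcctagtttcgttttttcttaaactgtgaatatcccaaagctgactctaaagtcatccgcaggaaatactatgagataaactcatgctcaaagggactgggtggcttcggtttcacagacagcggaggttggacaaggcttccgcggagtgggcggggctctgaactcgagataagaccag
Pdcd1lg2: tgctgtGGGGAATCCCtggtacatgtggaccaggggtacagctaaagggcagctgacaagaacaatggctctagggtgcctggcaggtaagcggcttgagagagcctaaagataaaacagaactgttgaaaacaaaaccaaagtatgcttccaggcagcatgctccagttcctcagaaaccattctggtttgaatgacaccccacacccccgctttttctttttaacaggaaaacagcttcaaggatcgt
Cd276: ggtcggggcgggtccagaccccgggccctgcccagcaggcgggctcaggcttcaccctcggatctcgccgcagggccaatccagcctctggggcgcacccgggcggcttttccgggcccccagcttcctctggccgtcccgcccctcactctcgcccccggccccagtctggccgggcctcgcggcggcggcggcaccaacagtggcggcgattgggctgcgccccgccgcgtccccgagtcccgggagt
GC content was 50.4% for Cd274, 48.4% for Pdcd1lg2 and 77.6% for Cd276.

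Sequences of 7 of the 9 genes were found in the RefSeq table and searched on both strands. The gamma-interferon activation site TTCNNNGAA matched none of them and 7.02% of 32851 promoters of this length. The interferon-stimulated response element core GAAANNGAAA matched Lgals9, 55 to 46 bases before its start, and 2.98% of all promoters. The kappa-B consensus matched Pdcd1lg2, 244 to 235 bases before its start, and Icosl, 111 to 102 bases before its start, against 7.25% of all promoters. A match describes letters in this window and not a used site.

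Between naive populations 4 to 6 of the 9 genes were called, and between naive and tumour lungs within 1 gate 0 to 2 were, which were Cd276 and Cd274. In MacB1-N against MacA-N, 3 members were called higher (15.0% of 17156 genes tested were) and 1 lower (8.71%). In MacB2-N against MacA-N, 4 were higher (10.7% of all genes) and 2 lower (10.2%). MacB1-N exceeded MacB2-N in 3 members (3.50%) and was lower in 1 (1.70%). These naive comparisons share groups, so they are not independent of each other.

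Between naive and tumour lungs, MacB2-2wk differed from MacB2-N in 1 member, called higher (1.66% of all genes), with 0 lower (0.227%). MacB2-3wk differed from MacB2-N in 2 members, both higher (9.67%), and 0 lower (5.04%), so Cd276 and Cd274 stand among many called genes at 3 weeks. From 2 to 3 weeks MacB2 cells had 1 member higher (3.06%) and 1 lower (1.28%). For MacA-2wk against MacA-N limma called 0 members higher (0.729% of all genes) and 0 lower (0.0583%), and 2 members, Cd276 and Icosl, had an unadjusted p under 0.05.

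Among tumour populations, MacB3-2wk exceeded MacB2-2wk in 2 members (3.15% of all genes) and was lower in 0 (4.21%). At 3 weeks MacB3 against MacB2 gave 0 higher (1.61%) and 0 lower (1.03%) in limma, with Cd80 and Lgals9 at an unadjusted p under 0.05. MacB3-3wk against MacB3-2wk gave 0 higher (0.280%) and 0 lower (0.0350%), with Cd40 and Pdcd1lg2 at an unadjusted p under 0.05. Against MacA-2wk, MacB3-2wk was higher in 4 members (7.20%) and lower in 0 (7.28%). Against MacB1-N, the other CD11c+ MacB population, MacB3-2wk was higher in 2 (8.32%) and lower in 0 (13.1%). MacB1 cells came only from naive lungs and MacB3 cells only from tumour lobes, so gate and tumour cannot be told apart there.

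**Figure D1:**
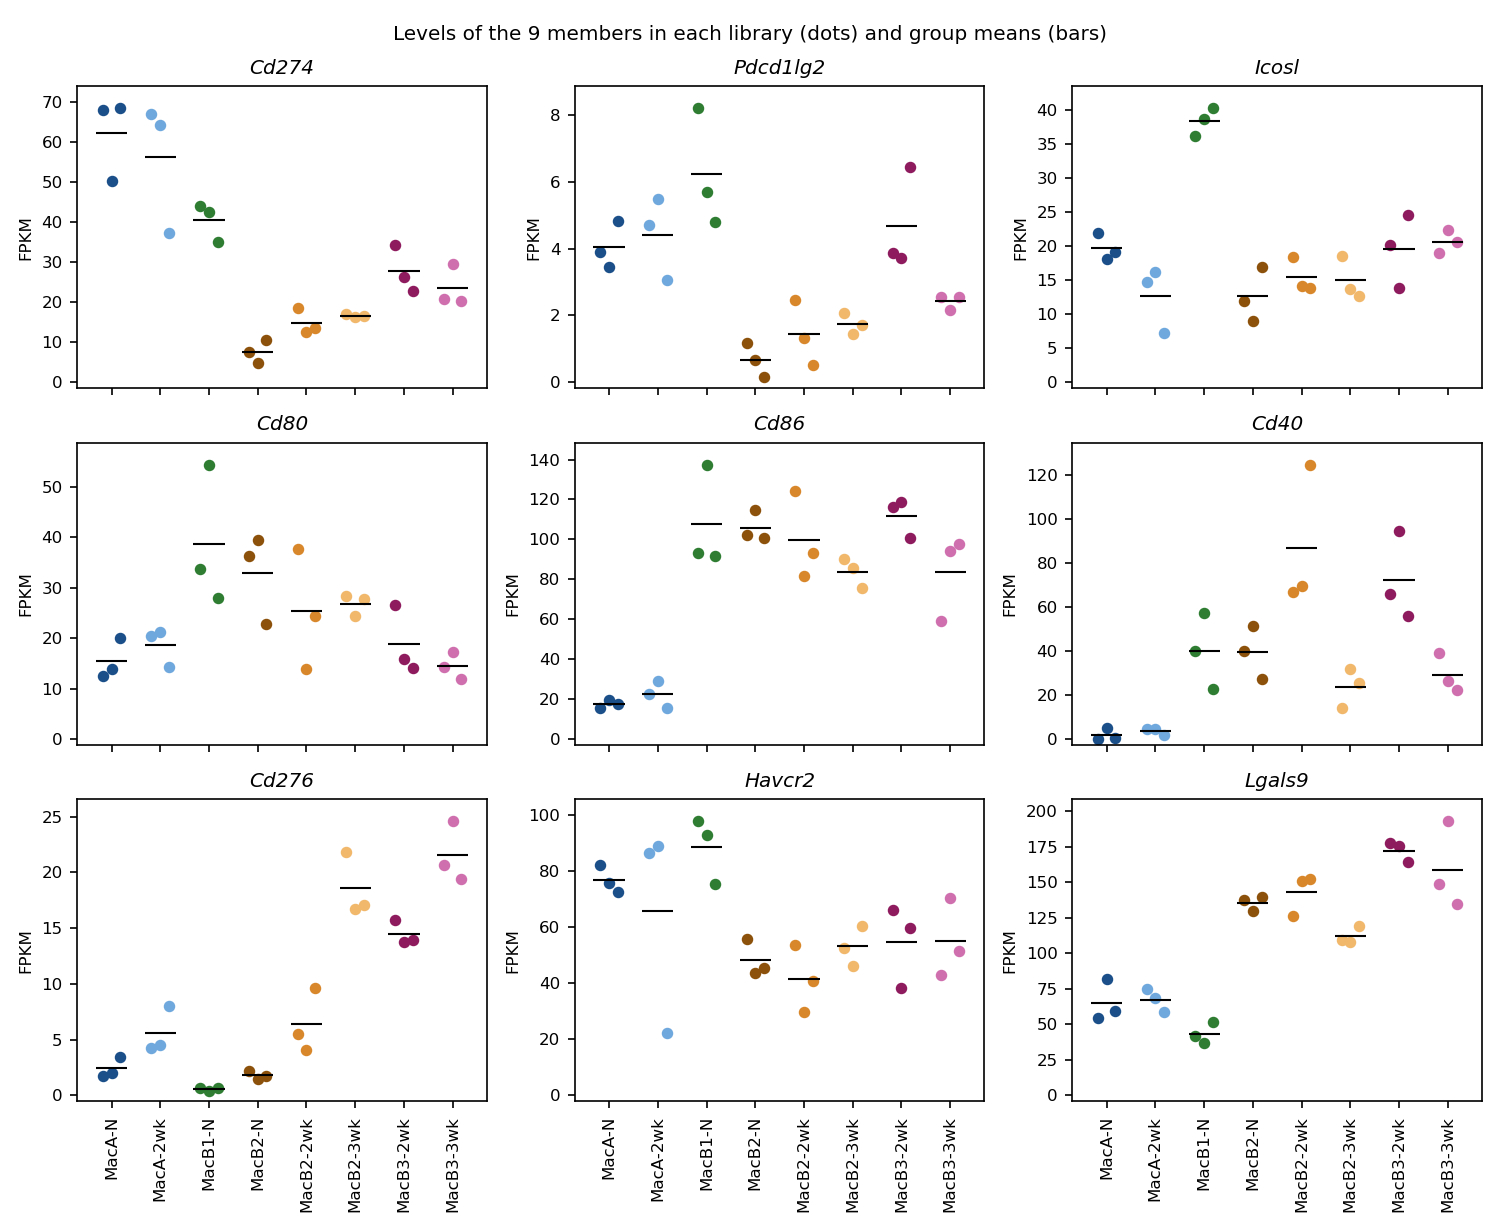
FPKM of the 9 genes in each of the 24 libraries (dots, 3 per group) with the group mean (bar), on linear axes that start at 0. Cd274 is highest in MacA and lowest in MacB2-N, Cd40 and Cd86 are low in MacA, and Cd276 is 16.8 to 24.6 FPKM in the 3-week groups.

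In naive lungs both PD-1 ligands were higher in MacA and MacB1 cells than in MacB2 cells. Cd274, which encodes PD-L1, was 68.0, 50.4 and 68.6 FPKM in MacA-N and 67.2, 64.4 and 37.3 FPKM in MacA-2wk. In MacB1-N it was 44.2, 42.6 and 35.2 FPKM, and in MacB2-N 7.64, 4.72 and 10.7 FPKM. No library of MacB2-N reached any library of the other 3 groups. Cd274 was lower in MacB2-N than in MacA-N by a log2 difference of -2.91 ± 0.26 (SE, n = 3 and 3; adjusted p = 4.59e-08) and higher in MacB1-N than in MacB2-N by 2.32 ± 0.26 (adjusted p = 9.86e-06). In bulk samples, fewer cells that carry an RNA and less of it in each cell cannot be told apart.

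In tumour lobes Cd274 of MacB2 cells lay above all naive MacB2 libraries. It was 18.6, 12.6 and 13.7 FPKM in MacB2-2wk and 17, 16.5 and 16.6 FPKM in MacB2-3wk, about level with each other. The difference from MacB2-N was 0.92 ± 0.26 at 2 weeks (adjusted p = 0.0749, not called) and 1.09 ± 0.26 at 3 weeks (adjusted p = 0.00498, called), and the groups did not overlap at either time. Without library 3 of MacB2-N the 2-week difference was 1.16 and called, the only one of 12 alternatives to call it (adjusted p 0.0313 to 0.389). Within each of the 3 lanes MacB2-3wk was higher, by 0.59 to 1.61. The 3-week call was lost under quantile normalization, with only the 2 groups fitted and without library 2 of MacB2-N (adjusted p 0.00172 to 0.0760 over 12 alternatives).

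MacB3 cells held Cd274 between MacB2 and MacA cells. The values were 34.4, 26.3 and 22.9 FPKM in MacB3-2wk and 20.9, 29.7 and 20.4 FPKM in MacB3-3wk. Every MacB3 library was above every MacB2 library. MacB3-2wk exceeded MacB2-2wk by 0.85 ± 0.26 (adjusted p = 0.0416, under 2-fold and so not called), and MacB3-3wk exceeded MacB2-3wk by 0.46 ± 0.26 (adjusted p = 0.432). MacB3-2wk differed from MacA-2wk by -0.96 ± 0.26 (adjusted p = 0.0110, under 2-fold), and was called in 4 of 12 alternatives: both rescalings, without library 1 of MacB3-2wk and, at -1.23, without library 3 of MacA-2wk (adjusted p 0.00189 to 0.105).

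Pdcd1lg2, which encodes PD-L2, had the lowest mean of the 9 genes, with a highest library value of 8.21 FPKM. It was 8.21, 5.69 and 4.80 FPKM in MacB1-N, 3.89, 3.44 and 4.84 FPKM in MacA-N and 1.19, 0.673 and 0.169 FPKM in MacB2-N. MacB2-N lay below both other naive groups without overlap. The difference was -1.63 ± 0.30 for MacB2-N against MacA-N (adjusted p = 3.07e-04) and 2.13 ± 0.30 for MacB1-N against MacB2-N (adjusted p = 1.13e-04). The second call was lost with only the 2 groups fitted (adjusted p 3.60e-05 to 0.0540 over 12 alternatives).

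At 2 weeks Pdcd1lg2 was higher in MacB3 than in MacB2 cells. MacB3-2wk held 3.87, 3.71 and 6.44 FPKM against 2.45, 1.34 and 0.534 FPKM in MacB2-2wk, a difference of 1.26 ± 0.30 (adjusted p = 0.00971). In MacB2-3wk it was 2.07, 1.43 and 1.72 FPKM, and in MacB3-3wk 2.56, 2.17 and 2.56 FPKM. The 3-week groups did not overlap, but their difference of 0.33 ± 0.30 was not called (adjusted p = 0.701). The change of the MacB3 to MacB2 difference from 2 to 3 weeks was -0.93, with a 95% interval of -1.83 to -0.04 and an adjusted p of 0.734. The 2-week call was lost with only the 2 groups fitted, without library 3 of MacB2-2wk and without library 3 of MacB3-2wk (adjusted p 0.00400 to 0.144 over 12 alternatives).

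Within a library, Cd274 exceeded Pdcd1lg2 everywhere, and the ratio was larger in MacA than in most MacB libraries. The ratio ran from 14.2 to 17.5 in MacA-N, 11.7 to 14.3 in MacA-2wk, 5.38 to 7.49 in MacB1-N and 3.55 to 8.87 in MacB3-2wk. In MacB2-N it ran from 6.44 to 63.3, the highest value coming from the library with Pdcd1lg2 at 0.169 FPKM.

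**Figure D2:**
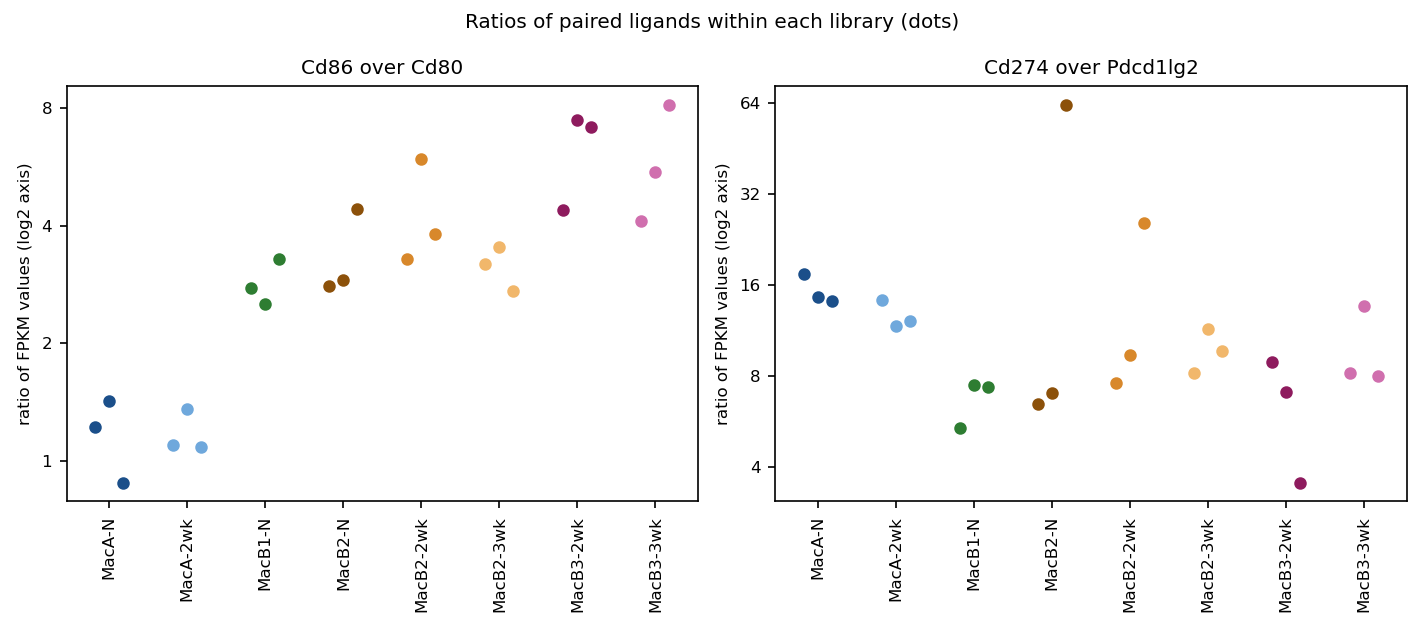
Ratio of FPKM values of 2 genes within each library (dots, 3 per group), on log2 axes. Cd86 over Cd80 is 0.88 to 1.42 in MacA libraries and 2.53 or higher in all MacB libraries, and Cd274 over Pdcd1lg2 reaches 63.3 in 1 library of MacB2-N.

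Cd86 separated MacB from MacA cells and moved little within MacB. The gene (chr16:36603869-36666081, minus strand) encodes a ligand of CD28 and CTLA-4. It was 15.3, 19.7 and 17.7 FPKM in MacA-N and 22.5, 28.9 and 15.5 FPKM in MacA-2wk. The 18 MacB libraries ran from 59.0 to 138 FPKM, all above the MacA libraries. MacB1-N and MacB2-N each exceeded MacA-N by 2.53 ± 0.23 (adjusted p = 6.25e-08 and 5.45e-08), and MacB3-2wk exceeded MacA-2wk by 2.31 ± 0.23 (adjusted p = 3.62e-07). In the comparisons within MacB, the 95% intervals for Cd86 all lay between -0.93 and 0.66, and 0 differences were called by limma, with 0 at an unadjusted p under 0.05.

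Cd80, the other ligand of CD28 and CTLA-4 (chr16:38455561-38496335, plus strand), was higher in the naive MacB groups than in MacA-N. It was 33.6, 54.5 and 27.9 FPKM in MacB1-N, 36.3, 39.4 and 22.8 FPKM in MacB2-N and 12.6, 13.8 and 20.1 FPKM in MacA-N. Neither MacB group overlapped MacA-N. The differences were 1.24 ± 0.33 for MacB1-N (adjusted p = 0.00679) and 1.03 ± 0.33 for MacB2-N (adjusted p = 0.0235). The MacB1-N call was lost without library 2 of MacB1-N, at 0.97 (adjusted p 0.00555 to 0.0470 over 12 alternatives). The MacB2-N call remained in 5 of 12 alternatives and was lost under both rescalings, with only the 2 groups fitted and without library 1 or 2 of either group (adjusted p 0.0124 to 0.0915).

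Cd80 was lowest, by group mean, in MacB3-3wk. In tumour MacB cells it was 37.7, 13.8 and 24.4 FPKM in MacB2-2wk, 28.4, 24.4 and 27.7 FPKM in MacB2-3wk, 26.5, 15.8 and 14.03 FPKM in MacB3-2wk and 14.3, 17.2 and 11.99 FPKM in MacB3-3wk. The last group was below all libraries of MacB2-3wk, by -0.85 ± 0.33, but the difference was not called (adjusted p = 0.193). MacB3-2wk lay below MacB1-N by -0.998 ± 0.33 with an adjusted p of 0.0267, just under 2-fold, and was called in 5 of 12 alternatives (adjusted p 0.00483 to 0.141). The ratio of Cd86 to Cd80 was 0.88 to 1.42 in MacA-N, 1.08 to 1.36 in MacA-2wk, 2.53 to 3.28 in MacB1-N and 2.81 to 4.42 in MacB2-N. In tumour MacB2 cells it was 3.29 to 5.92 at 2 weeks and 2.73 to 3.52 at 3 weeks, and in MacB3 cells 4.38 to 7.48 and 4.11 to 8.15. The MacB2-3wk ratios overlapped those of MacB2-N, and the MacB2-2wk ratios overlapped those of MacB3 cells.

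Cd40 had the largest fold between its highest and lowest group means of the 9 genes, 46.8, and was lowest in MacA cells. The gene lies at chr2:165055627-165072948 on the plus strand. It was listed at 0 in library 1 of MacA-N and was 4.99 and 0.585 FPKM in the others, with 4.72, 4.46 and 1.89 FPKM in MacA-2wk. In MacB1-N it was 40.0, 57.1 and 22.5 FPKM and in MacB2-N 40.0, 51.2 and 27.2 FPKM, with no overlap with MacA. The differences from MacA-N were 4.17 ± 0.52 for MacB1-N (adjusted p = 3.76e-06) and 4.21 ± 0.52 for MacB2-N (adjusted p = 3.19e-06), and MacB3-2wk exceeded MacA-2wk by 3.99 ± 0.52 (adjusted p = 1.16e-05). With levels this low in MacA-N, the size depended on the pseudocount and the libraries kept, from 3.63 to 5.73 for MacB1-N. Without library 3 of MacA-2wk the difference of MacB3-2wk from MacA-2wk was 3.67. The difference of MacA-2wk from MacA-N was 1.08 with that library and 1.40 without it, and was called in neither.

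In tumour MacB cells Cd40 was high at 2 weeks and lower at 3 weeks. MacB2-2wk held 66.6, 69.5 and 125 FPKM and MacB2-3wk 13.9, 31.7 and 25.2 FPKM. The groups did not overlap, and the fall of 1.85 ± 0.52 was called (adjusted p = 0.0380). It was lower in 3 of 3 lanes, by -2.26 to -1.11, but the call remained in 4 of 12 alternatives and in 1 of 6 with a library left out (adjusted p 0.0236 to 0.222). The 5 losing libraries were all 3 of MacB2-2wk and libraries 1 and 3 of MacB2-3wk. In MacB3 cells the values were 65.7, 94.6 and 55.9 FPKM at 2 weeks and 38.9, 26.1 and 22.2 FPKM at 3 weeks, a difference of -1.28 ± 0.52 that was not called (adjusted p = 0.445). MacB2-2wk against MacB2-N differed by 1.10 ± 0.52 and was not called (adjusted p = 0.329). The SE of these Cd40 differences takes in the MacA-N libraries at 0, 4.99 and 0.585 FPKM, so it is not the spread of MacB libraries alone.

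Markers of other cells also differed between MacB2-2wk and MacB2-3wk, some lower at 3 weeks like Cd40 and some higher. The B cell sum went from 11.8 to 29.8 FPKM at 2 weeks to 2.82 to 4.34 FPKM at 3 weeks, and 1 of 4 tested markers was called lower. The endothelial sum went from 82.5 to 255 FPKM to 29.7 to 40.6 FPKM, with 2 of 4 called lower. Of the nonclassical monocyte markers 3 of 4 were called lower, and of the dendritic cell markers 2 of 5, with 0 called higher. The dendritic cell sum was nevertheless higher at 3 weeks, 84.3 to 114.5 FPKM against 37.9 to 69.4 FPKM. Its marker Fscn1 averaged 22.1 FPKM at 2 weeks and 90.8 FPKM at 3 weeks. Of the fibroblast markers 2 of 5 were called higher. The classical monocyte sum was 2064 to 2361 FPKM at 2 weeks and 1039 to 1094 FPKM at 3 weeks, with a median difference of -0.996. Limma called 0 of these 4 markers, and 4 had an unadjusted p under 0.05. Of the alveolar macrophage markers 2 of 6 were called lower and 0 higher. The part of these markers in the Cd40 difference was not tested.

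The CD40 and NF-kB list held 15 genes, all of them tested. In MacB1-N against MacA-N, 12 were higher and 0 lower (15.0% and 8.71% of all genes were), with a median difference of 1.51 beside 0.12 over all genes tested. The largest were Traf1 (5.87), an adaptor of TNF receptors, Map3k14 (3.74), the kinase of the non-canonical NF-kB pathway, and Birc3 (2.71), a ubiquitin ligase that acts with the TRAF proteins. In MacB2-N against MacA-N, 8 were higher and 0 lower (10.7% and 10.2% of all genes were), led by Traf1 (4.09), Birc3 (2.36) and Map3k14 (2.16). MacB1-N exceeded MacB2-N in 4 (3.50% of all genes), among them Traf1 (1.78), Map3k14 (1.58) and Tnfaip3 (1.10), an inhibitor of NF-kB, although Cd40 itself differed by -0.04 ± 0.52.

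In MacB2 cells 3 of the 15 genes were lower at 3 weeks than in naive lungs (5.04% of all genes were), Rel (-1.96), Map3k14 (-1.54) and Birc3 (-1.44), and 0 were higher (9.67%). From 2 to 3 weeks only Rel, an NF-kB subunit, was called among the 15 (-1.10), where 1.28% of all genes were called lower. MacB3-2wk was lower than MacB2-2wk in 3 (4.21% of all genes), Nfkb1 (-1.14), Rel (-1.09) and Birc3 (-1.03), and lower than MacB1-N in 6 (13.1%), led by Map3k14 (-2.99), Rel (-2.84) and Traf1 (-1.93). MacB3-2wk exceeded MacA-2wk in Traf1 alone (3.36), where 7.20% of all genes were called higher. In the other pairwise comparisons limma called 0 of the 15, with 4 at an unadjusted p under 0.05 for MacA-2wk against MacA-N, 1 for MacB2-2wk against MacB2-N, 3 for MacB3-3wk against MacB2-3wk and 4 for MacB3-3wk against MacB3-2wk.

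Icosl was highest in MacB1-N. The gene (chr10:78069302-78083913, plus strand) encodes the ligand of ICOS, a costimulatory receptor of activated T cells. It was 36.1, 38.6 and 40.2 FPKM in MacB1-N, above every other library, and 11.9, 8.99 and 16.9 FPKM in MacB2-N. The difference was 1.57 ± 0.26 (adjusted p = 6.53e-04) and was lost with only the 2 groups fitted (adjusted p 4.11e-04 to 0.0530 over 12 alternatives). MacA-N held 21.9, 18.1 and 19.1 FPKM and differed from MacB1-N by 0.93 ± 0.26 (adjusted p = 0.0103, under 2-fold). In MacA-2wk it was 14.7, 16.2 and 7.21 FPKM, all below MacA-N, with a difference of -0.66 ± 0.26 (adjusted p = 0.338) and of -0.33 without library 3. MacB3-2wk, the CD11c+ MacB cells of tumour lobes, lay below MacB1-N without overlap by -0.98 ± 0.26, under 2-fold (adjusted p = 0.00841, 0.00398 to 0.0544 over 12 alternatives), and 5 of the 12 called it. The 12 libraries of tumour MacB cells ran from 12.6 to 24.5 FPKM, and 0 of their comparisons with each other or with MacB2-N were called by limma, with 0 at an unadjusted p under 0.05.

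Markers of dendritic cells and of other cell types also differed between MacB1-N and the other naive groups. The summed level of 7 dendritic cell markers was 290 to 391 FPKM in MacB1-N, 29.1 to 40.0 FPKM in MacB2-N and 2.04 to 5.36 FPKM in MacA-N. Cd209a averaged 174 FPKM, Ccr7 81.9 FPKM and Fscn1 56.3 FPKM in MacB1-N, while Xcr1 and Itgae stayed at 0.817 FPKM or lower in each of its libraries. Nonclassical monocyte markers summed to 2831 to 4324 FPKM in MacB1-N, 2015 to 2718 FPKM in MacB2-N and 284 to 538 FPKM in MacA-N, and 4 of 4 were called higher against MacA-N and 3 of 4 against MacB2-N. Against MacA-N, 4 of 4 endothelial markers (235 to 318 FPKM against 34.0 to 60.3 FPKM in sum) and 5 of 5 fibroblast markers were also called higher. Against MacB2-N limma called 0 of either list, with 4 of 4 endothelial and 4 of 5 fibroblast markers at an unadjusted p under 0.05. The median differences from MacB2-N were 1.37 and 1.08. The fibroblast sums, 55.1 to 74.8 FPKM in MacB1-N and 18.5 to 40.4 FPKM in MacB2-N, did not overlap. Of the alveolar macrophage markers 2 of 6 were called higher than in MacB2-N and 0 lower, with a median difference of 1.36. Their sums overlapped, at 629 to 1124 FPKM in MacB1-N and 367.5 to 667 FPKM in MacB2-N. Of the classical monocyte markers 4 of 4 were called lower than in MacB2-N (109 to 117 FPKM against 2756 to 3552 FPKM in sum). Against MacA-N, 5 of 6 alveolar macrophage markers were lower and 4 of 4 classical monocyte markers higher. The part of these markers in the MacB1-N levels of the 9 genes was not tested.

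Cd276 was the member that differed most between naive and tumour MacB2 cells. In MacB2-N it was 2.18, 1.51 and 1.79 FPKM, in MacB2-2wk 5.52, 4.11 and 9.60 FPKM and in MacB2-3wk 21.8, 16.8 and 17.1 FPKM. These 3 groups did not overlap. The differences were 1.33 ± 0.26 from naive to 2 weeks (adjusted p = 0.00846), 1.46 ± 0.26 from 2 to 3 weeks (adjusted p = 0.00313) and 2.79 ± 0.26 from naive to 3 weeks (adjusted p = 5.76e-07). The last held under all 12 alternatives, with a range of 2.64 to 3.28, and was 2.70 to 2.85 within the 3 lanes. With only the compared groups fitted the first 2 calls were lost, and the 2-week call was also lost without library 3 of MacB2-2wk (adjusted p 0.00369 to 0.260 over 12 alternatives).

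At 2 weeks Cd276 was higher in MacB3 than in MacB2 cells. The values were 15.7, 13.7 and 13.98 FPKM in MacB3-2wk and 20.7, 24.6 and 19.4 FPKM in MacB3-3wk. MacB3-2wk exceeded MacB2-2wk by 1.13 ± 0.26 (adjusted p = 0.00781), lost with only the 2 groups fitted and without library 2 of MacB2-2wk (adjusted p 0.00139 to 0.114 over 12 alternatives). At 3 weeks the MacB3 and MacB2 libraries overlapped, with a difference of 0.21 ± 0.26 (adjusted p = 0.810). The change of this difference from 2 to 3 weeks was -0.92, with a 95% interval of -1.69 to -0.15 and an adjusted p of 0.652.

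The lowest Cd276 levels were in MacB1-N, with 0.650, 0.416 and 0.690 FPKM. MacB3-2wk exceeded MacB1-N by 3.29 ± 0.26 (adjusted p = 2.87e-08), under all 12 alternatives and by 3.15 to 3.38 within the lanes. MacB1-N was also lower than MacA-N, which held 1.79, 2.00 and 3.48 FPKM, by -1.08 ± 0.26 (adjusted p = 0.00319). Without library 3 of MacA-N that difference was -0.87 and not called (adjusted p 9.76e-05 to 0.0248 over 12 alternatives). In MacA-2wk it was 4.28, 4.48 and 8.03 FPKM, all above MacA-N, but the difference of 0.93 ± 0.26 was not called (adjusted p = 0.117), and it was 0.69 without library 3. The change from naive to 2 weeks in MacB2 minus that in MacA cells was 0.39 (95% interval -0.38 to 1.17, adjusted p = 0.769). MacB3-2wk exceeded MacA-2wk by 1.27 ± 0.26 (adjusted p = 0.00126), a call lost after rescaling to the protein-coding sum (adjusted p 2.95e-04 to 0.0424 over 12 alternatives).

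Fibroblast markers were higher along with Cd276 in part of the groups. The sum of 5 fibroblast markers was 18.5 to 40.4 FPKM in MacB2-N, 101.2 to 140 FPKM in MacB2-2wk, 412 to 778 FPKM in MacB2-3wk and 169 to 281 FPKM in MacB3-3wk. In MacB3-2wk it was 19.1 to 51.6 FPKM, and in MacB1-N 55.1 to 74.8 FPKM, where Cd276 was at least 13.7 FPKM and at most 0.690 FPKM, respectively. In MacA-2wk the sum was 23.7 to 215 FPKM against 7.91 to 15.5 FPKM in MacA-N, and library 3 held the highest sum and the highest Cd276 of its group. Other markers also differed between MacB2-3wk and MacB2-N. The classical monocyte sum was 1039 to 1094 FPKM against 2756 to 3552 FPKM in MacB2-N, with 3 of 4 markers called lower. The epithelial sum was 554 to 805 FPKM against 3089 to 10280 FPKM, with 2 of 4 called lower. Of the nonclassical monocyte markers 4 of 4 were called lower, while 1 of 3 neutrophil markers was called higher. The part of fibroblast RNA or of these other markers in the Cd276 and Cd274 levels was not tested in any group.

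**Figure D3:**
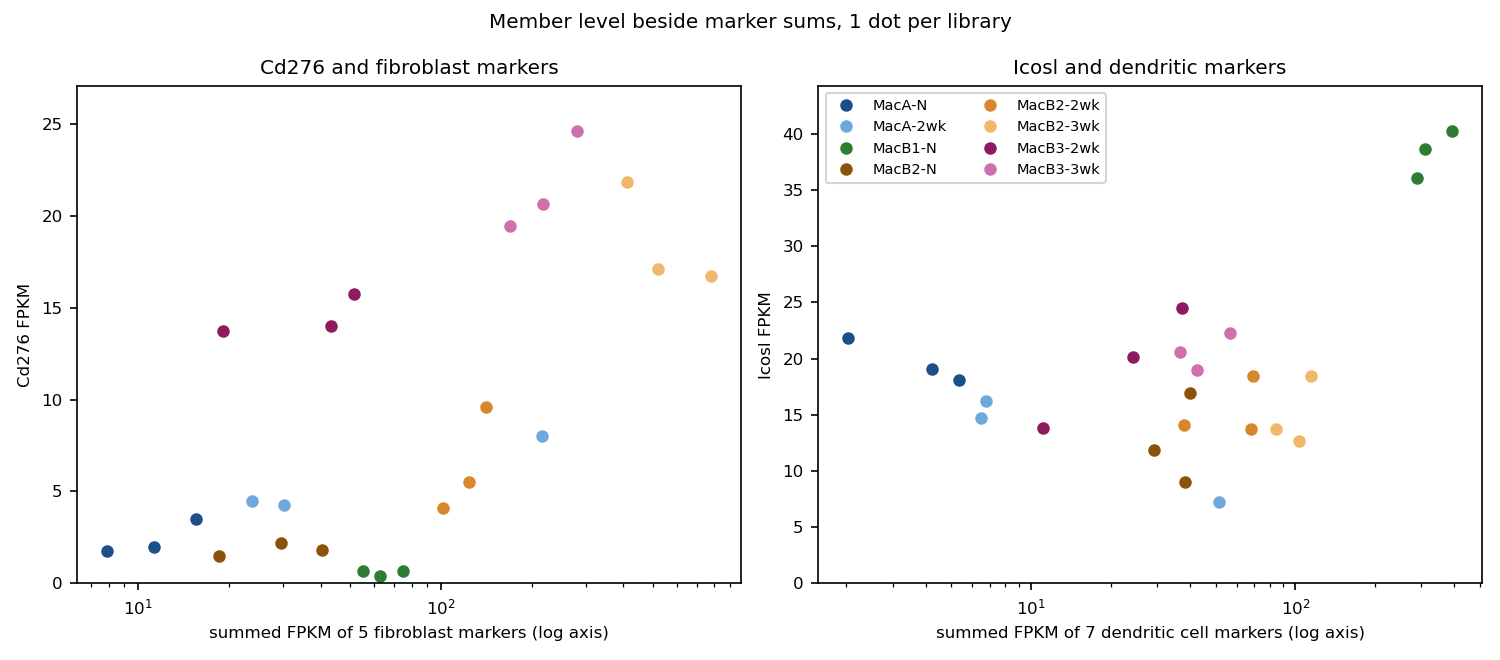
Left, Cd276 (FPKM) against the summed FPKM of 5 fibroblast markers on a log axis, 1 dot per library. Right, Icosl (FPKM) against the sum of 7 dendritic cell markers; MacB3-2wk has 13.7 to 15.7 FPKM of Cd276 at fibroblast sums of 19.1 to 51.6, and MacB1-N stands alone at the upper right of the Icosl plot.

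Lgals9 had the highest mean of the 9 genes in every MacB group except MacB1-N, where it was lowest of all groups. The gene (chr11:78962974-78984946, minus strand) was 41.9, 36.6 and 51.5 FPKM in the CD64low MacB1-N cells and 137, 129.8 and 139.7 FPKM in the CD64med MacB2-N cells. In the CD64hi cells it was 177, 175 and 164 FPKM in MacB3-2wk and 149, 193 and 134 FPKM in MacB3-3wk. MacB1-N was lower than MacB2-N by -1.64 ± 0.17 (adjusted p = 3.53e-06), and MacB3-2wk exceeded MacB1-N by 1.98 ± 0.17 (adjusted p = 7.32e-08), both under all 12 alternatives. MacB3-2wk was above all MacB2-2wk libraries (126, 151 and 153 FPKM), but the difference of 0.27 ± 0.17 was not called (adjusted p = 0.344). MacB2-3wk held 109.6, 108 and 119 FPKM, 0.48 ± 0.17 below MacB3-3wk and not called (adjusted p = 0.143).

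MacA cells held 54.4, 82.0 and 59.5 FPKM of Lgals9 in naive lungs and 74.7, 68.7 and 58.5 FPKM at 2 weeks, which overlapped. MacB2-N exceeded MacA-N by 1.06 ± 0.17 (adjusted p = 6.33e-05) and MacB3-2wk exceeded MacA-2wk by 1.35 ± 0.17 (adjusted p = 7.01e-06). Both fell under 2-fold after rescaling to the protein-coding sum. The first did so also under quantile normalization and without library 1 of MacA-N (0.83 to 1.24 over 12 alternatives).

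Havcr2 was called in none of the 12 pairwise comparisons or 2 interactions. The gene (chr11:46454935-46481255, plus strand) was 82.2, 75.99 and 72.8 FPKM in MacA-N, 98.0, 93.2 and 75.3 FPKM in MacB1-N and 55.8, 43.7 and 45.7 FPKM in MacB2-N. The first 2 groups lay above the third without overlap. MacB1-N exceeded MacB2-N by 0.86 ± 0.37 (unadjusted p = 0.0310, adjusted p = 0.188), the only comparison with an unadjusted p under 0.05 for this gene. It was higher in 3 of 3 lanes, by 0.710 to 1.075. The SE takes in the spread of all groups, MacA-2wk with its library 3 included, and not that of the naive MacB libraries alone. The tumour MacB libraries ran from 30.0 to 70.7 FPKM. In MacA-2wk it was 86.5, 89.2 and 22.4 FPKM, so the group's SD of 37.8 FPKM came from library 3, and the difference from MacA-N was -0.45 with that library and 0.19 without it. The difference of MacB3-2wk from MacA-2wk was -0.06 with that library and -0.71 without it (adjusted p = 0.0529), and that of Icosl was 0.62 and 0.28.

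**Figure D4:**
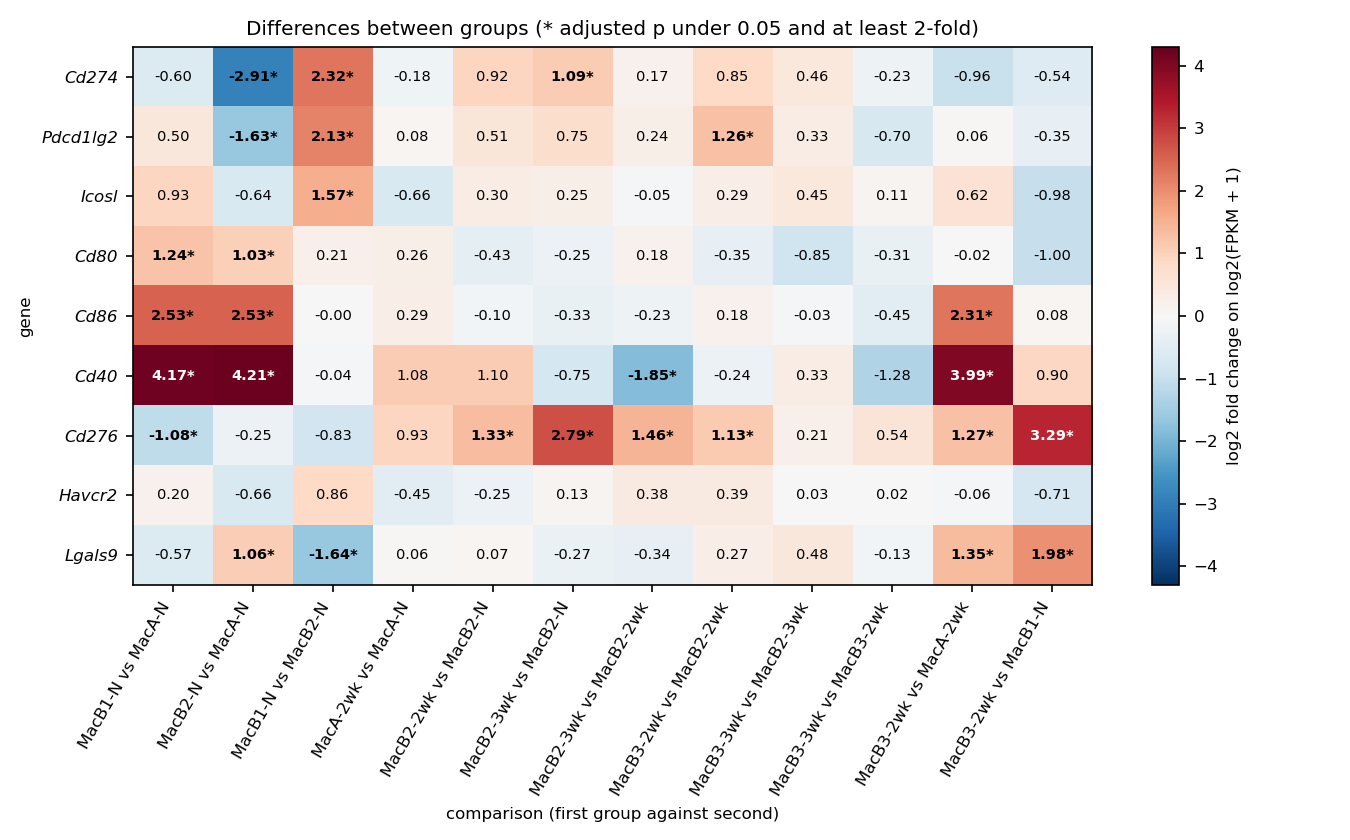
Difference in log2(FPKM + 1) for the 9 genes (rows) in the 12 pairwise comparisons (columns, first group against second), red for higher and blue for lower in the first group, with a star at the 27 called values. The row of Havcr2 has no star, and Cd276 has 7.

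A second list held 22 other ligands and surface proteins that T cells read, of which 16 were tested. Btn2a2, Cd70, Tnfsf4, Tnfsf15, Tnfsf18 and Vtcn1 had no group mean of 1 FPKM. In MacB1-N against MacA-N, 8 were higher and 2 lower (15.0% and 8.71% of all genes were), with a median difference of 0.92 beside 0.12 over all genes tested. The largest were Tnfsf9 (6.90), the ligand of 4-1BB, Ceacam1 (6.16), an adhesion molecule, and Tnfrsf14 (4.54), the HVEM protein that binds BTLA, while the galectins Lgals3 (-2.47) and Lgals1 (-2.25) were lower. MacB2-N against MacA-N gave 7 higher (10.7% of all genes), led by Tnfrsf14 (5.32), Ceacam1 (5.28) and Tnfsf9 (4.07), and 2 lower (10.2%), Lgals1 (-1.68) and Lgals3 (-1.26). MacB1-N exceeded MacB2-N in Tnfsf9 (2.83) and Cd83 (1.58), and was lower in Vsir (-1.45), which encodes the checkpoint protein VISTA and stands in the table under its older symbol 4632428N05Rik, and Lgals3 (-1.20). Vsir averaged 2455 FPKM in MacB2-N and 405 FPKM in MacA-N, above each of the 9 genes in both.

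In tumour MacB2 cells the galectin Lgals1 was higher than in MacB2-N at 2 weeks (1.32) and at 3 weeks (2.63). At 2 weeks Tnfsf14 (1.02), the LIGHT cytokine, was also higher and 0 of the 16 were lower. At 3 weeks Ceacam1 (-1.83), Cd83 (-1.71) and Cd48 (-1.36) were lower. From 2 to 3 weeks Lgals1 (1.31) was higher and Icam1 (-1.06) and Cd48 (-1.02) lower. MacB3 cells were higher than MacB2 cells in Tnfsf8, the CD30 ligand, and lower in Ceacam1 and Tnfsf14, by 1.11, -2.42 and -1.30 at 2 weeks and by 1.24, -1.69 and -1.14 at 3 weeks. The fibroblast sums given above were higher in the same MacB2 groups as Lgals1, and their part in it was not tested.

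MacB3-2wk against MacA-2wk gave 7 of the 16 higher and 1 lower (7.20% and 7.28% of all genes were). The higher ones were led by Tnfrsf14 (4.82), Tnfsf9 (4.00) and Vsir (2.15), and the lower one was Cd47 (-1.85). Against MacB1-N it gave 4 higher (8.32% of all genes), led by Lgals1 (2.69), Lgals3 (2.12) and Tnfrsf14 (1.98), and 4 lower (13.1%), led by Ceacam1 (-4.16), Cd83 (-2.56) and Tnfsf9 (-1.90). For MacA-2wk against MacA-N limma called 0 of the 16, with 7 at an unadjusted p under 0.05, and for MacB3-3wk against MacB3-2wk 0, with 2 at an unadjusted p under 0.05.

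**Figure D5:**
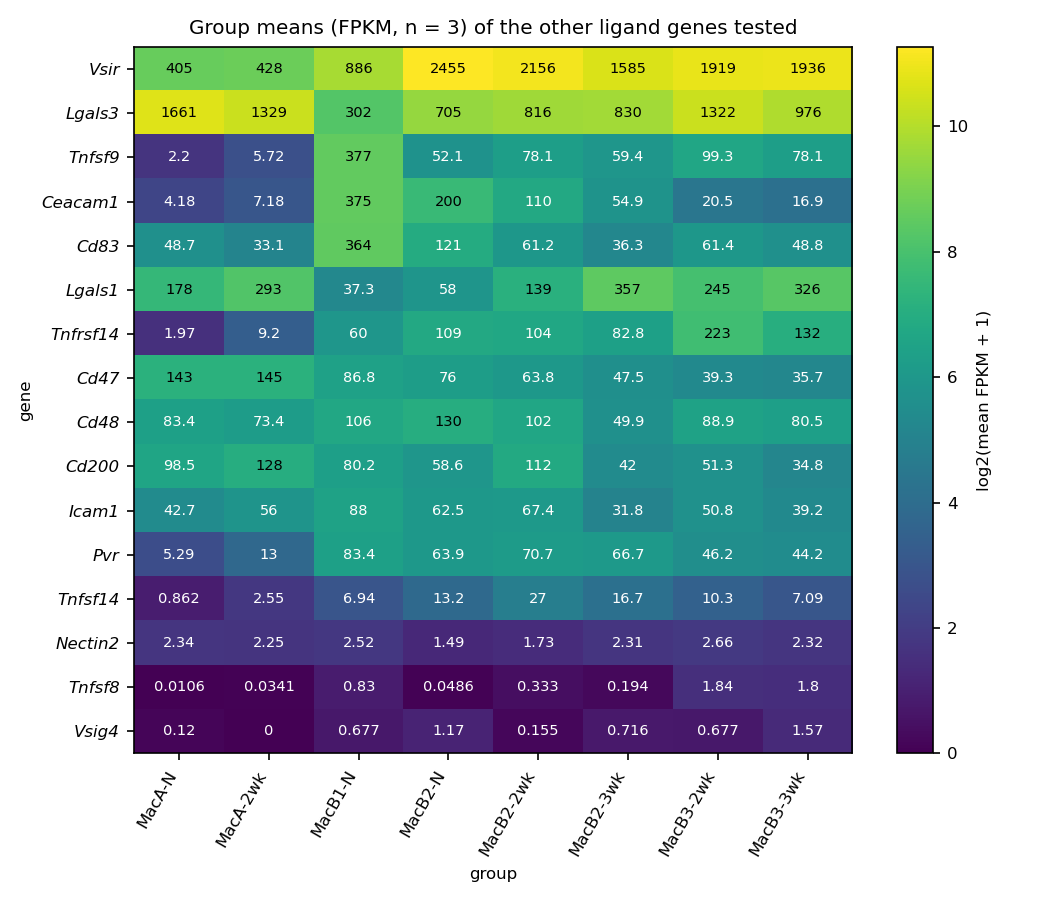
Group mean FPKM (n = 3, printed in each cell) of the 16 other ligand genes tested, coloured by log2(mean FPKM + 1), with groups as columns. Vsir and Lgals3 have the highest means, and Tnfsf9, Ceacam1 and Cd83 peak in MacB1-N at 364 to 377 FPKM.

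The interferon-gamma list held 13 genes of the pathway known to induce Cd274, Cd40 and the regulator Ciita. In MacB1-N against MacA-N, 8 were higher and 0 lower (15.0% and 8.71% of all genes were), with a median of 1.56 beside 0.12 over all genes, led by Socs3 (3.99), Jak2 (2.38) and Irf1 (2.27). In MacB2-N against MacA-N 8 were higher and 0 lower (10.7% and 10.2% of all genes), with a median of 1.28 beside 0.03, led by Socs3 (2.46), Irf9 (2.45) and Irf1 (2.09). In the same fit Cd274 was lower in MacB2-N than in MacA-N (-2.91) and Cd40 was higher (4.21). The part of interferon-gamma in either difference was not tested. MacB1-N exceeded MacB2-N in Jak2 (1.41) and was lower in Irf8 (-1.52). In MacA-2wk against MacA-N only Irf1 was called among the 13 (1.01).

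In MacB2 cells Socs1 and Socs3, inhibitors of cytokine signalling, were higher than in MacB2-N at 2 weeks (2.00 and 1.94) and at 3 weeks (1.40 and 1.51). At 3 weeks 4 of the 13 were lower (5.04% of all genes), led by Ifngr1 (-1.34), the receptor of interferon-gamma, and Irf8 (-1.17), and from 2 to 3 weeks 2 of the 13 were lower (1.28%), Ciita (-1.06) among them. MacB3-3wk against MacB3-2wk gave 1 of the 13 lower (0.0350% of all genes) and 0 higher (0.280%). MacB3-3wk exceeded MacB2-3wk in Irf8 (1.09) and Ciita (1.01), while for MacB3-2wk against MacB2-2wk limma called 0 of the 13, with 5 at an unadjusted p under 0.05. MacB3-2wk exceeded MacA-2wk in 5 (7.20% of all genes), led by Socs3 (2.85), Socs1 (2.38) and Ciita (2.19). It was higher than MacB1-N in Irf8 (1.50) and Socs1 (1.47) and lower in 3 (13.1% of all genes), Stat3 (-1.57), Jak2 (-1.52) and Ifngr1 (-1.16).

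The list of T cell partners held 17 receptors and counter-receptors, and 13 were tested. Pdcd1, Icos, Cd40lg and Cd160 had no group mean of 1 FPKM, and Cd28 and Ctla4 reached means of at most 1.05 and 1.78 FPKM. MacB1-N exceeded MacA-N in 7 (15.0% of all genes), with a median over the 13 of 1.22 beside 0.12 over all genes, led by Timd4 (3.59), a receptor for dying cells, Cd244 (2.88) and Cd226 (2.80), and was lower in Cd2 (-3.82). MacB2-N exceeded MacA-N in Cd244 (2.58) and Btla (2.24) and was lower in Cd2 (-5.28) and Tnfrsf18 (-1.54). MacB1-N exceeded MacB2-N in 5 (3.50% of all genes), led by Timd4 (2.73), Cd226 (2.12) and Lag3 (1.59). The sum of 6 T cell markers was 21.8 to 35.5 FPKM in MacB1-N, 6.82 to 16.5 FPKM in MacB2-N and 2.31 to 3.31 FPKM in MacA-N, and its part was not tested.

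In tumour MacB2 cells Lag3 was higher than in MacB2-N at both times (1.40 and 1.06), Tigit at 2 weeks (listed at 0 in all 3 MacB2-N libraries, so no fold is given) and Tnfrsf9 at 3 weeks (2.00), while Btla was lower at 3 weeks (-1.71) and lower at 3 than at 2 weeks (-1.23). MacB3 cells were lower than MacB2 cells in Cd244 at 2 and 3 weeks (-2.09 and -1.87) and in Btla at 2 weeks (-1.88). MacB3-2wk was lower than MacB1-N in 7 of the 13 (13.1% of all genes), led by Timd4 (-3.01), Cd2 (-2.78) and Cd27 (-2.72). Against MacA-2wk it was higher in Tnfrsf9 (1.66) and lower in Cd2 (-6.05) and Tnfrsf18 (-1.81). Limma called 0 of the 13 for MacA-2wk against MacA-N, with 1 at an unadjusted p under 0.05, and 0 for MacB3-3wk against MacB3-2wk, with 0 at an unadjusted p under 0.05.

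The 11 inhibitory receptors of myeloid cells, which like TIM-3 restrain the cell that carries them, were all tested. MacB1-N exceeded MacA-N in 3 (15.0% of all genes), Cd300a (3.31), Clec12a (1.32) and Lair1 (1.11), with a median over the 11 of -0.17 beside 0.12 over all genes, and was lower in 4 (8.71%), led by Cd300lf (-3.02), Cd200r1 (-2.02) and Lilrb4 (-1.25). MacB2-N exceeded MacA-N in Cd300a (3.95), Clec12a (2.34) and Pirb (1.18) and was lower in Cd200r1 (-3.31), Cd300lf (-2.42) and Pilra (-1.04). MacB1-N exceeded MacB2-N in Cd200r1 (1.28), the receptor of CD200, and was lower in Lilrb4 (-1.08). At 3 weeks MacB2 cells were above MacB2-N in Cd200r1 (1.26) and Cd300lf (1.10) and below it in Cd300a (-1.88), Clec12a (-1.47) and Lair1 (-1.01). From 2 to 3 weeks Cd300a (-1.25) and Clec12a (-1.15) were lower.

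MacB3 cells exceeded MacB2 cells in Lair1, a collagen receptor, at 2 weeks (1.25) and 3 weeks (1.61). At 2 weeks they were also higher in Fcgr2b (1.43), the inhibitory Fc receptor, and Cd200r1 (1.40) and lower in Cd300a (-1.07). MacB3-2wk exceeded MacA-2wk in 4 (7.20% of all genes), led by Fcgr2b (3.14), Cd300a (1.68) and Clec12a (1.38), and was lower in Cd200r1 (-1.18). It exceeded MacB1-N in 4 (8.32% of all genes), led by Fcgr2b (2.21), Cd300lf (2.16) and Lilrb4 (1.34), and was lower in Cd300a (-1.08). In the remaining pairwise comparisons limma called 0 of the 11, with 0 at an unadjusted p under 0.05 for MacA-2wk against MacA-N, 2 for MacB2-2wk against MacB2-N and 0 for MacB3-3wk against MacB3-2wk.

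Whether the tumour-related change depended on the population or the time was tested for all genes as 2 interactions. The change from naive to 2 weeks in MacB2 against that in MacA was called higher in 0 members (0.134% of all genes) and lower in 0 (0.0874%), with Cd274 (1.10, 95% interval 0.32 to 1.87, adjusted p = 0.291) and Icosl (0.96, adjusted p = 0.379) at an unadjusted p under 0.05. Without library 3 of MacA-2wk these were 0.83 and 0.63. The change of the MacB3 to MacB2 difference between 2 and 3 weeks was called higher in 0 members (0% of all genes) and lower in 0 (0%) by limma, with Cd276 and Pdcd1lg2, given above, at an unadjusted p under 0.05. Of the 5 other lists, 0 genes were called in either interaction, with 2 or 3 of each list at an unadjusted p under 0.05 in the first and 0 to 3 in the second.

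The genes with the most similar profiles were sought among 10148 protein-coding genes over the 24 libraries, which share groups and lanes, so Pearson's r is given as a description. Cd274 was closest to Ccnd2 (0.943), Mreg (0.933) and the sort marker Itgax (0.928), and Itgax was also among the 3 closest to Pdcd1lg2 (0.839), after Dpep2 (0.856) and Bcl2a1d (0.850). Cd80 was closest to Phf8 (0.856), Notch2 (0.840) and Clec2g (0.834), and Cd86 to Rasa4 (0.969), Pid1 (0.967) and Fyb (0.963). Cd40 ran with Neurl3 (0.946), Apobec3 (0.938) and Zbp1 (0.935). Cd276 ran with Pkm (0.954), a glycolytic enzyme, Mif (0.948), a macrophage cytokine, and Cxcl3 (0.940), a neutrophil chemokine. Icosl was closest to Ctnnd2 (0.840) and the chemokines Ccl22 (0.824) and Ccl17 (0.811), Havcr2 to Polr2a and Myh9 (0.833 each) and Gab2 (0.818), and Lgals9 to Fcgr1 (0.950), which encodes the CD64 used in the sort, Npc2 (0.946) and Tgfbi (0.914).

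Among the 9 genes themselves the closest profiles were those of Cd86 and Cd40 (0.916), the pair that was low in MacA cells, and of Cd274 and Pdcd1lg2 (0.810), the neighbours whose sequences are printed above. Icosl and Havcr2 (0.691) and Cd276 and Lgals9 (0.672) followed.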

How the data were processed

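RNA sequencing of 24 libraries from sorted mouse lung macrophages and monocytes was analysed. Per the submitters' processing notes, the authors used FastQC, TopHat2 (version 2, mm10) and Cufflinks 2.0.2, which gives FPKM. The deposited table of FPKM values names no unit in its header, so the unit rests on those notes, and depth is unknown. Its loci are not GRCm38 positions, so positions come from GENCODE M21 by Ensembl identifier.

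Values were analysed as log2(FPKM + 1) without rescaling. A fit of all 24 libraries was made in R 4.3.3 (limma 3.58.1) with a mean for each group, an empirical Bayes trend and 16 residual degrees of freedom. The test took the 17156 of 37979 genes whose mean reached 1 FPKM in any group, in 12 pairwise comparisons and 2 interactions, with Benjamini-Hochberg adjustment over all genes in each. The fit was also run on simulated data with independent noise. That run scored adjusted p alone, without the 2-fold rule, so it did not test the calls as defined here. The table holds 78 entries of 5 other lists, all matched to a row. Named genes are all 9 members and, from each other list, up to 3 called genes per direction with the largest differences (1 gene of the interferon-gamma list is not reported here); similar profiles are the 3 highest Pearson correlations among protein-coding genes that reached a mean of 5 FPKM in any group. The members and lists were chosen with earlier results of these data known. Alternatives were a pseudocount of 0.1, no filter, quantile normalization, rescaling to the protein-coding sum, fitting the compared groups only, a replicate block and leaving out each library.

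In MacB libraries the replicate number is also the run lane in the labels, so the block pairs by lane. Deviations of same-lane MacB libraries correlated at a median of 0.00119 (45 pairs, -0.0726 to 0.21), and those of other pairs at -0.00226 (90 pairs).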

Additional observations from a re-analysis of the deposited data

How the results depend on the processing

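Of 126 differences (9 genes in 14 comparisons), 27 were called, 13 of these under every alternative run, and 0 called differences changed direction. Another 8 were called only under an alternative, and 91 never were, 25 of them with a change of sign. The replicate block changed 0 member calls; Cd40 in MacB2-3wk against MacB2-2wk, for example, was called with it (adjusted p 0.0236) and without it (0.0380). It moved the first interaction from 38 to 24 called genes.

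Only the larger moves in the number of members called are given as counts here. The number of members called moved from 2 to 1 (MacB2-3wk against MacB2-2wk) and from 2 to 4 (MacB3-2wk against MacB1-N) with a pseudocount of 0.1. Without a filter it was 1 for MacB2-3wk against MacB2-2wk, under quantile normalization 1 for MacB2-3wk against MacB2-N, and after rescaling to the protein-coding sum 4 for MacB3-2wk against MacB1-N. With only the compared groups fitted, which leaves 4 residual degrees of freedom in a pair, it was 2 for MacB1-N against MacB2-N, 1 for MacB2-3wk against MacB2-N, and 0 for MacB2-2wk against MacB2-N, MacB2-3wk against MacB2-2wk and MacB3-2wk against MacB2-2wk. Smaller moves include the calls of Cd80 and Lgals9 in MacB2-N against MacA-N, lost under both rescalings. After the protein-coding sum, MacB3-2wk against MacA-2wk lost Cd276 and Lgals9 and gained Cd274. Cd276 was gained in MacB1-N against MacB2-N with a pseudocount of 0.1 and under quantile normalization. The cause of all these changes was not tested otherwise.

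With 1 library left out, the number was 3 to 5 (MacB1-N against MacA-N), 4 to 6 (MacB2-N against MacA-N), 4 (MacB1-N against MacB2-N), 0 to 2 (MacB2-2wk against MacB2-N), 1 to 2 (MacB2-3wk against MacB2-N and against MacB2-2wk), 1 to 3 (MacB3-2wk against MacB2-2wk), 4 to 5 (MacB3-2wk against MacA-2wk), 2 to 4 (MacB3-2wk against MacB1-N) and 0 in the other 5. A group left with 2 libraries shares the spread of the others.

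Over all genes, fitting only the compared groups moved the counts called from 893 to 268 (MacB1-N against MacB2-N), 135 to 4 (MacA-2wk against MacA-N), 323 to 37 (MacB2-2wk against MacB2-N), 2524 to 1680 (MacB2-3wk against MacB2-N), 744 to 208 (MacB2-3wk against MacB2-2wk), 1263 to 648 (MacB3-2wk against MacB2-2wk), 54 to 26 (MacB3-3wk against MacB3-2wk), 2484 to 1634 (MacB3-2wk against MacA-2wk), 38 to 13 (first interaction) and 0 to 4 (second). A pseudocount of 0.1 gave 238, 493, 19 and 89 for MacA-2wk against MacA-N, MacB2-3wk against MacB2-2wk, MacB3-3wk against MacB3-2wk and the first interaction, and no filter gave 23 and 1 for the interactions. MacB3-3wk against MacB3-2wk gave 27 under quantile normalization and 22 after protein-coding rescaling. Smaller moves of the counts over all genes are left out. Leaving out a library gave 606 to 1393 for MacB1-N against MacB2-N, 87 to 244 for MacA-2wk against MacA-N, 136 to 292 for MacB2-2wk against MacB2-N, 449 to 753 for MacB2-3wk against MacB2-2wk, 297 to 384 for MacB3-3wk against MacB2-3wk, 11 to 38 for MacB3-3wk against MacB3-2wk, 17 to 57 for the first interaction and 0 to 3 for the second.

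Rescaling moved the split of higher and lower calls. Quantile normalization gave 1930 and 2161 (2572 and 1495 without it) for MacB1-N against MacA-N, 423 and 422 (601 and 292) for MacB1-N against MacB2-N, 209 and 71 (284 and 39) for MacB2-2wk against MacB2-N, 1374 and 1234 (1659 and 865) for MacB2-3wk against MacB2-N, 676 and 527 (541 and 722) for MacB3-2wk against MacB2-2wk, 21 and 6 (48 and 6) for MacB3-3wk against MacB3-2wk and 1839 and 1711 (1427 and 2254) for MacB3-2wk against MacB1-N. The protein-coding sum gave 1415 and 2249 (1838 and 1745) for MacB2-N against MacA-N, 767 and 200 for MacB1-N against MacB2-N, 1839 and 566 for MacB2-3wk against MacB2-N, 611 and 111 (525 and 219) for MacB2-3wk against MacB2-2wk, 841 and 2191 (1235 and 1249) for MacB3-2wk against MacA-2wk and 957 and 3019 for MacB3-2wk against MacB1-N. It moved the median of all genes from 0.09 to 0.26 (MacB1-N against MacB2-N), 0 to 0.10 (MacB2-3wk against MacB2-N), -0.06 to -0.32 (MacB3-2wk against MacA-2wk) and -0.11 to -0.32 (MacB3-2wk against MacB1-N), and quantile normalization from 0.12 to -0.03, 0.09 to -0.02 and -0.11 to 0.01 in MacB1-N against MacA-N, MacB1-N against MacB2-N and MacB3-2wk against MacB1-N. With FPKM alone the read depth is unknown, and levels near 1 FPKM, such as Cd276 in MacB1-N and Pdcd1lg2 in MacB2-N, are the least certain.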
